A study of Mus musculus with 6 samples.

Results

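The macrophage integrin subunits described here are 10 genes taken by symbol, with no threshold on their values. They are the alpha chains Itgam, Itgax, Itgal, Itga4, Itga5 and Itgav and the beta chains Itgb2, Itgb1, Itgb3 and Itgb7. All 10 were present among the 19233 genes of the deposited table. The RNA sequenced came from polysomes, mRNAs loaded with more than a single ribosome, of the mouse macrophage-like tumour line RAW264.7. The tested cells, titled M2 for the alternatively activated state, had received 500 nM of the RNA polymerase I inhibitor BMH-21 for 24 h, begun 24 h after polarization (3 libraries). The control cells, also titled M2, had received the solvent DMSO (3 libraries). The treatment text of the labels is written for bone marrow-derived macrophages given IL-4 or interferon gamma with LPS, so the polarizing agent of the line itself is not stated, and the times are those of that text. The question was the effect of the drug on the translated mRNAs. All libraries are from 1 transformed line, and nothing says that replicates were separate cultures, so p-values cover only the spread among these libraries, possibly a technical spread.

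Integrins are membrane receptors made of an alpha and a beta chain, and a chain without its partner is not carried to the cell surface. The beta2 chain pairs with the alphaM, alphaX and alphaL chains in leukocytes, where these receptors bind ICAMs and complement fragments and serve adhesion and phagocytosis. The alpha4 and alpha5 chains pair with beta1 to bind VCAM1 and fibronectin, alpha4 also pairs with beta7, and alphaV pairs with several beta chains to bind vitronectin, osteopontin and latent TGF-beta.

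With BMH-21 the mRNAs of both Mac-1 chains, Itgam and Itgb2, rose, and those of both VLA-4 chains, Itga4 and Itgb1, fell, the last by little more than the median gene and with a call that 3 of 4 other scalings lost. Itgb2, the common beta2 chain, was 1.99 times its DMSO level, Itgb7 was 1.71 times and Itgam 1.39 times, whereas Itga4 and Itgb1 were at 0.718 and 0.759 of theirs. Of the 7 members that reached 1 FPKM (fragments per kilobase of transcript, scaled to library size) in at least 3 libraries, limma called 3 higher and 2 lower at an adjusted p under 0.05, and 2 were not called. Of all 9748 tested genes 78.3% were called, 19.9% higher and 58.4% lower. The groups did not overlap in 79.8% of them, with 20.3% higher and 59.5% lower, so separation of the groups is common in this table. The other 3 members, Itgax, Itgal and Itgb3, stayed under the filter and were not tested in that fit. Below the filter, Itgax was higher with BMH-21 and Itgal lower, without overlap.

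**Figure D1:**
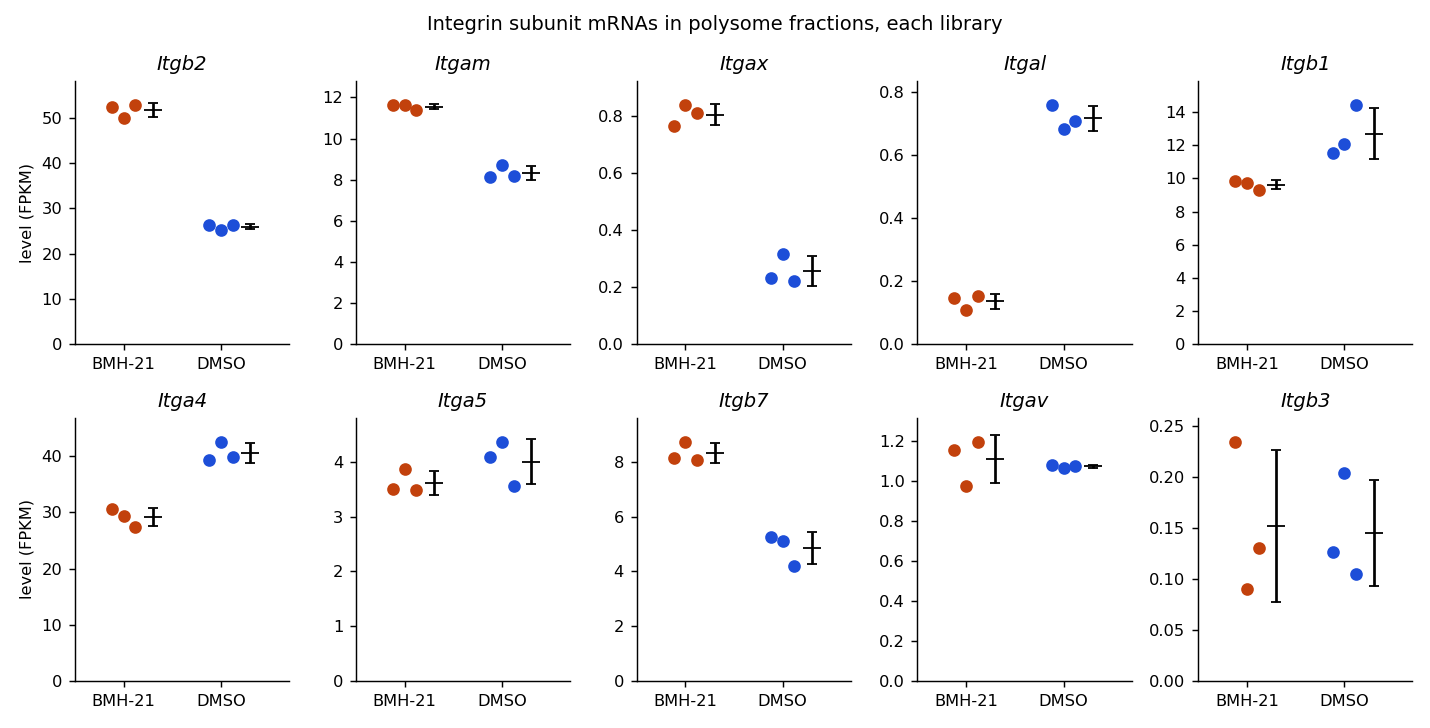
Level of each of the 10 integrin subunit mRNAs in FPKM (vertical axes, from 0, a scale for each gene) in the 3 BMH-21 and the 3 DMSO libraries; points are libraries, and bars at the right of each group give the mean and SD. Itgb2, Itgam, Itgax and Itgb7 are higher in every BMH-21 library, Itgal, Itga4 and Itgb1 are lower, and Itga5, Itgav and Itgb3 overlap.

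Steps between low values implied 18780000 to 22560000 reads in the BMH-21 libraries and 21620000 to 24080000 in the DMSO libraries. A value reflects both the amount of an mRNA and its share on polysomes, which were not separated here. In pooled RNA, fewer cells with an mRNA and less of it per cell cannot be told apart. The 10 macrophage markers examined, among them Csf1r, Cd68 and Spi1, summed to 19800 to 21000 FPKM in the BMH-21 libraries and 11500 to 12000 FPKM in the DMSO libraries, most of it Lyz2, which averaged 17500 FPKM with BMH-21 and 9471 FPKM with DMSO. Cd68 averaged 885 FPKM with BMH-21 and 805 FPKM with DMSO, and Csf1r 49.2 FPKM with BMH-21 and 56.2 FPKM with DMSO. Libraries stood apart in epithelial genes. Krt8, an epithelial keratin, was at 4.22, 3.60 and 3.78 FPKM in BMH-21 replicates 1 to 3, and at 0, 0.0236 and 3.27 FPKM in DMSO replicates 1 to 3. Krt18, its partner, was at 8.89, 6.41 and 8.09 FPKM with BMH-21 and at 0, 0.0644 and 5.47 FPKM with DMSO. The summed list of 4 epithelial markers in the table was 10.9 to 13.9 FPKM in BMH-21 libraries and 0 to 9.66 FPKM in DMSO libraries. DMSO replicate 3 thus carried these RNAs at a level near that of the BMH-21 libraries, and DMSO replicates 1 and 2 did not. An alternative added after this was seen took DMSO replicate 3 as the sole control. In this limma fit the lone sample was taken to vary like the others. The log2 changes were then 0.95 for Itgb2, 0.84 for Itgb7, 0.45 for Itgam, −0.44 for Itga4 and −0.54 for Itgb1. Without DMSO replicate 3 they were 0.98, 0.59, 0.42, −0.48 and −0.27 in the same order, and Itga5 was called lower as well.

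Itgb2 (ENSMUSG00000000290.13, chromosome 10, 77530252 to 77565708, GRCm38, plus strand) was at 52.5, 49.8 and 52.8 FPKM in the BMH-21 libraries and at 26.3, 25.3 and 26.3 FPKM in the DMSO libraries. The groups were far apart, each spanning under 3 FPKM. Its log2 fold change, taken as BMH-21 minus DMSO of log2(FPKM + 1) like those that follow, was 0.97 ± 0.04 (SE, limma adjusted p = 1.93e-08). This was the largest change of the 7 tested members in either direction. The last of these DMSO values is from replicate 3, which carried the epithelial RNAs. The part of those RNAs in the Itgb2 values was not tested.

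Itgam (ENSMUSG00000030786.18, chromosome 7, 128062640 to 128118491, GRCm38, plus strand), the alphaM chain of the complement receptor Mac-1 and a common myeloid marker, was at 11.6, 11.6 and 11.4 FPKM in the BMH-21 libraries and at 8.11, 8.70 and 8.17 FPKM in the DMSO libraries. The groups did not overlap. Its log2 fold change was 0.43 ± 0.04 (SE, limma adjusted p = 9.6e-06), smaller than that of its partner Itgb2. A predicted protein-coding gene, Gm49368, overlaps Itgam on the same strand (chromosome 7, 128062683 to 128128160) and averaged 0.484 FPKM with BMH-21 and 0.22 FPKM with DMSO, so some Itgam reads may have been assigned to it.

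The other alpha partners of beta2 were rare on polysomes. Itgax (ENSMUSG00000030789.9, chromosome 7, 128129547 to 128150657, GRCm38, plus strand), the alphaX chain also known as CD11c and used as a dendritic cell marker, was at 0.765, 0.840 and 0.811 FPKM in the BMH-21 libraries and at 0.233, 0.318 and 0.221 FPKM in the DMSO libraries. There was no overlap, and the ratio of means was 3.13. Itgal (ENSMUSG00000030830.18, chromosome 7, 127296260 to 127335138, GRCm38, plus strand), the alphaL chain of the ICAM receptor LFA-1, went the other way. It was at 0.146, 0.108 and 0.154 FPKM in the BMH-21 libraries and at 0.759, 0.683 and 0.706 FPKM in the DMSO libraries. Again the groups did not overlap, and the DMSO mean was 5.27 times the BMH-21 mean.

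These low values rested on few reads. Taking the length of the longest GENCODE transcript with a RefSeq match, Itgax corresponded to about 58 to 77 reads per BMH-21 library and 20 to 28 per DMSO library, and Itgal to about 13 to 17 and 77 to 95. An exact two-sided permutation test of the means gave p = 0.10 for each gene, the smallest that 3 against 3 samples allow. The alternative limma fit with no filter on low values was read for these genes after their values were seen. There the log2 change was 0.52 ± 0.04 for Itgax (SE, limma adjusted p = 0.000266) and −0.60 ± 0.03 for Itgal (SE, limma adjusted p = 6.33e-05). In that fit 10.8% of 19233 genes were called higher and 33.5% lower. Of the 5 conventional dendritic cell markers in the table, none passed the filter, and Flt3 and Clec9a stayed under 0.1 FPKM in every library. The summed list was 0.343 to 0.564 FPKM with BMH-21 and 1.62 to 1.87 FPKM with DMSO. Most of it was Batf3, at 0.218 FPKM with BMH-21 and 1.19 FPKM with DMSO, and Zbtb46, at 0.152 and 0.489 FPKM. For Xcr1 the groups overlapped. The relation of these genes to Itgax was not tested.

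The composition of the alpha chains that can join beta2 was computed within each library, which removes the scaling between libraries. Itgam made up 92.5 ± 0.27% of the summed FPKM of Itgam, Itgal, Itgax and Itgad with BMH-21 and 89.5 ± 0.38% with DMSO (SD, n = 3 each). The share of Itgax was 6.44 ± 0.30% with BMH-21 and 2.76 ± 0.46% with DMSO, and that of Itgal was 1.09 ± 0.20% with BMH-21 and 7.72 ± 0.65% with DMSO (SD, n = 3 each). Itgad, the alphaD chain gene, was listed at 0, or in 1 DMSO library at a value far below 1 read, in all 6 libraries. For each of the 3 shares the groups did not overlap, and the exact two-sided permutation p was 0.10, the smallest possible. With 1 FPKM added to each gene the differences were 6.001 points for Itgam, 1.49 for Itgax and −6.03 for Itgal, against 2.94, 3.68 and −6.63 without it, so the sizes of the Itgam and Itgax differences depend on how low values are treated. As deposited, Itgal took the second largest share with DMSO and Itgax with BMH-21.

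The 4 alpha genes of this group lie on the same strand of chromosome 7, in the order Itgal, Itgam, Itgax and Itgad. Itgam and Itgax are separated by 11055 bases, Itgax and Itgad by 3718 bases, and Itgal lies 727501 bases before Itgam. Adjacent Itgam and Itgax were both higher with BMH-21, and the more distant Itgal was lower.

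Promoter windows of the 4 called members that are held in the RefSeq table used here (GRCm38.p6) are shown because Itgam and Itgb7 were called higher and Itga4 and Itgb1 lower. That of Itgax is shown as the neighbour of Itgam. Each run is the 250 bases before the annotated start, and capitals mark GAGGAA or its reverse complement TTCCTC, the core of sites bound by PU.1, the ETS factor that specifies myeloid cells.
Itgam (chr7:128062390-128062639, plus strand): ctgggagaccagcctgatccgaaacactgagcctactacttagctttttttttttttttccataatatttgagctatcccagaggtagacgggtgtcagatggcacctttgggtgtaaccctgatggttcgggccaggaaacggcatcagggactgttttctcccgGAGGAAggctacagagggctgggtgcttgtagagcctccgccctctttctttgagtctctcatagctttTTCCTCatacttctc
Itgax (chr7:128129300-128129549, plus strand): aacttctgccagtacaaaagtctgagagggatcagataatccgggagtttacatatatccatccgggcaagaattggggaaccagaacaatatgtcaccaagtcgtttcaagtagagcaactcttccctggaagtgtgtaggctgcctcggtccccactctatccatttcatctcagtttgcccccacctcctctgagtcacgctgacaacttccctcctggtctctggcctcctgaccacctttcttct
Itgb7 (chr15:102231936-102232185, minus strand): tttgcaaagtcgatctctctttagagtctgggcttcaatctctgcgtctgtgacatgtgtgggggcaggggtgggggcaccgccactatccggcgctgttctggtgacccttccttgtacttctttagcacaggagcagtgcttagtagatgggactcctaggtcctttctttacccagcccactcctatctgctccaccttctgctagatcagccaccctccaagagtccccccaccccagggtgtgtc
Itga4 (chr2:79255176-79255425, plus strand): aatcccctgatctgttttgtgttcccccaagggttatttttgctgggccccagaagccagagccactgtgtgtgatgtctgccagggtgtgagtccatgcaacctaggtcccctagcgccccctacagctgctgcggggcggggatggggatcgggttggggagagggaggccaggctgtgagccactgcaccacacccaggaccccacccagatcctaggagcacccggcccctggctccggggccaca
Itgb1 (chr8:128685404-128685653, plus strand): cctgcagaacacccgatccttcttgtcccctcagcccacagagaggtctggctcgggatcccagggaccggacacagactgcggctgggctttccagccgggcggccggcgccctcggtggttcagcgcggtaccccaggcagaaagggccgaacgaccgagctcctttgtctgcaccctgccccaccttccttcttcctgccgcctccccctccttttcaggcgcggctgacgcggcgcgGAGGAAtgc

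GAGGAA, searched on both strands, began 84 and 15 bases before the start of Itgam and 9 bases before that of Itgb1, and was not found in these windows of Itgax, Itgb7 or Itga4. It was present in 23.3% of 32851 promoter windows of that length. The GC box GGGCGG, bound by SP1, was found once each in the windows of Itgam, Itga4 and Itgb1 and in 32.7% of all windows. The AP-1 site TGANTCA was found once, in the Itgax window, and in 6.75% of all windows, and TATAAA in none of the 5 and in 12.4% of all. G and C made up 49.6% of the Itgam window, 50.0% of that of Itgax and 56.0% of that of Itgb7, and 64.0% and 68.0% of those of Itga4 and Itgb1, against a median of 52.4% over all windows. A match of letters is a description and not a bound site.

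The alpha4 and beta1 chains form VLA-4, a receptor for VCAM1 and fibronectin. Itga4 (ENSMUSG00000027009.18, chromosome 2, 79255426 to 79333123, GRCm38, plus strand) was at 30.6, 29.4 and 27.4 FPKM in the BMH-21 libraries and at 39.3, 42.6 and 39.8 FPKM in the DMSO libraries. The groups did not overlap. Its log2 fold change was −0.46 ± 0.05 (SE, limma adjusted p = 1.45e-05), below the median of −0.23 over all tested genes, and −0.19 with median-ratio scaling (adjusted p = 0.00569). Its last part overlaps Cerkl on the opposite strand, which averaged 0.312 FPKM with BMH-21 and 0.667 FPKM with DMSO.

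Itgb1 (ENSMUSG00000025809.15, chromosome 8, 128685654 to 128733200, GRCm38, plus strand), the beta chain shared by many receptors for matrix, was at 9.84, 9.73 and 9.32 FPKM in the BMH-21 libraries and at 11.6, 12.1 and 14.4 FPKM in the DMSO libraries. The groups did not overlap, and DMSO replicate 3 was the highest library. The log2 fold change was −0.36 ± 0.07 (SE, limma adjusted p = 0.00101), and −0.27 without DMSO replicate 3 (adjusted p = 0.0012). The change was close to that of all genes, and the call was lost with median-ratio scaling (−0.10, adjusted p = 0.228), upper-quartile scaling (−0.14, adjusted p = 0.105) and quantile normalization (−0.12, adjusted p = 0.189).

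Itga5 (ENSMUSG00000000555.8, chromosome 15, 103344286 to 103366763, GRCm38, minus strand), the alpha chain of the main fibronectin receptor, was at 3.50, 3.86 and 3.49 FPKM in the BMH-21 libraries and at 4.09, 4.37 and 3.56 FPKM in the DMSO libraries. The groups overlapped, DMSO replicate 3 lying among the BMH-21 libraries. The log2 fold change was −0.11 (95% interval −0.27 to 0.04, limma adjusted p = 0.15). Without DMSO replicate 3 Itga5 was called lower at −0.18 (adjusted p = 0.03), with equal column totals lower at −0.21 (adjusted p = 0.0155), and with quantile normalization higher at 0.20 (adjusted p = 0.025).

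Itgb7 (ENSMUSG00000001281.10, chromosome 15, 102215995 to 102231944, GRCm38, minus strand), the beta chain that joins alpha4 in the gut-homing receptor of lymphocytes, was at 8.15, 8.73 and 8.05 FPKM in the BMH-21 libraries and at 5.25, 5.11 and 4.20 FPKM in the DMSO libraries. All BMH-21 libraries lay above all DMSO libraries. The log2 fold change was 0.67 ± 0.07 (SE, limma adjusted p = 1.17e-05). The other beta chain that can join alpha4, Itgb1, was lower under the deposited scaling, a call lost under 3 of the 4 others. Of the T cell markers only Lck and Cd4 were in the table, summing to 1.90 to 2.12 FPKM with BMH-21 and 2.81 to 3.63 FPKM with DMSO. Nearly all of this was Lck, and Cd4 stayed under 0.1 FPKM in every library. The B cell genes Cd79a, Cd79b and Pax5 stayed under 0.1 FPKM in all 6 libraries.

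Itgav (ENSMUSG00000027087.11, chromosome 2, 83724397 to 83806916, GRCm38, plus strand), the alpha chain of the vitronectin receptors, was at 1.15, 0.973 and 1.19 FPKM in the BMH-21 libraries and at 1.08, 1.06 and 1.07 FPKM in the DMSO libraries. The groups overlapped, with a log2 fold change of 0.02 (95% interval −0.12 to 0.16, limma adjusted p = 0.743). It was called higher with median-ratio scaling (0.17, adjusted p = 0.029) and with quantile normalization (0.30, adjusted p = 0.00178).

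Itgb3 (ENSMUSG00000020689.4, chromosome 11, 104608000 to 104670476, GRCm38, plus strand), which joins alphaV in the main integrin of osteoclasts, was at 0.235, 0.0901 and 0.130 FPKM in the BMH-21 libraries and at 0.127, 0.204 and 0.105 FPKM in the DMSO libraries. The groups overlapped (exact two-sided permutation p = 0.90), and the values corresponded to only about 12 to 25 reads in the BMH-21 libraries and 14 to 25 in the DMSO libraries, so a moderate difference was not detectable at this depth. The 8 osteoclast markers in the table summed to 183 to 190 FPKM with BMH-21 and 66.4 to 77.2 FPKM with DMSO. The largest part was Atp6v0d2, which averaged 134 FPKM with BMH-21 and 32.4 FPKM with DMSO. The list was mixed. In FPKM with BMH-21 and then DMSO, Dcstamp averaged 4.29 and 0.626, Ctsk 28.0 and 23.1, Acp5 11.1 and 9.67, and Nfatc1 4.68 and 5.95. For Mmp9 the groups overlapped. The part of these markers in the values of Itgb3 was not tested.

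Ranked by mean FPKM, which is scaled by transcript length, the order of the subunits differed between the groups. With BMH-21 it was Itgb2, Itga4, Itgam, Itgb1, Itgb7, Itga5, Itgav, Itgax, Itgb3 and Itgal, and only Itgb3 and Itgal, next to each other in it, had overlapping libraries. With DMSO it was Itga4, Itgb2, Itgb1, Itgam, Itgb7, Itga5, Itgav, Itgal, Itgax and Itgb3, and only Itgb7 and Itga5 had overlapping libraries. Itgb2 and Itga4 thus changed places at the top, and Itgam and Itgb1 below them. The 10 genes summed to 118.5, 115.2 and 114.8 FPKM in the BMH-21 libraries and to 96.88, 100.4 and 98.63 FPKM in the DMSO libraries. All genes of the table also summed higher with BMH-21, at 368625 to 373396 FPKM, than with DMSO, at 339022 to 343455 FPKM.

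**Figure D2:**
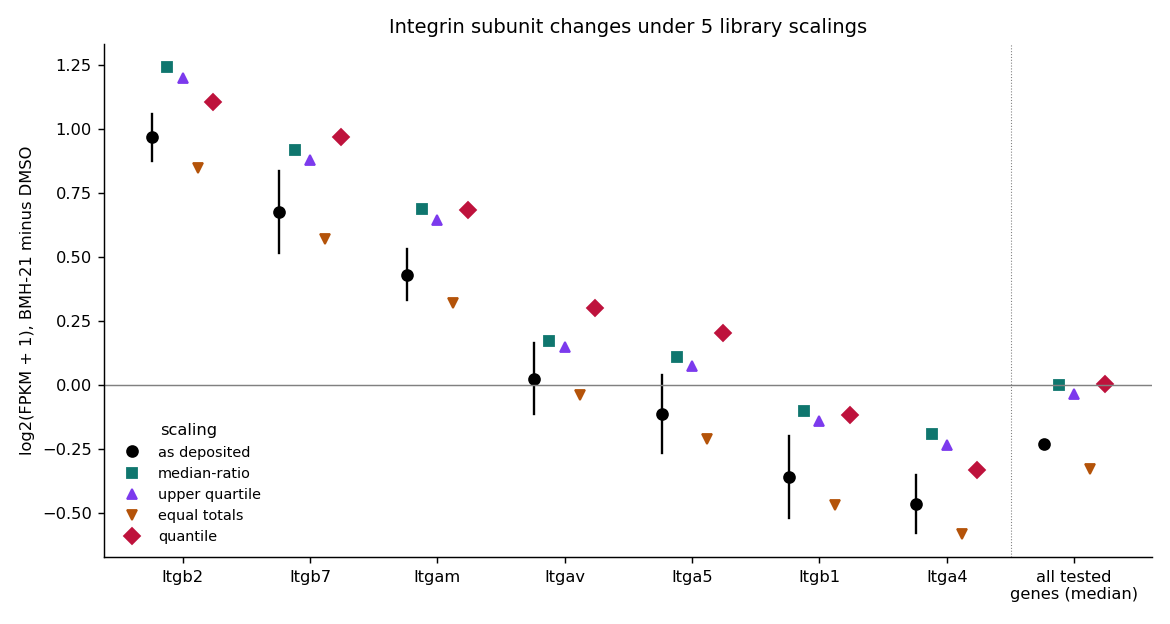
Change of the 7 tested integrin subunits and the median of all tested genes (horizontal axis) as log2(FPKM + 1), BMH-21 minus DMSO (vertical axis), under the deposited scaling and 4 others; black bars are 95% intervals of the deposited scaling. Itgb2, Itgb7 and Itgam stay above 0 and Itga4 and Itgb1 below it under all 5, while Itgav and Itga5 lie on both sides.

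The split of all genes into higher and lower depended on the scaling between libraries. Under the deposited scaling 1938 genes were called higher and 5690 lower, and under median-ratio scaling, which moved the all-gene median by 0.23, 3643 and 3546. Relative to the median of all tested genes the deposited log2 changes were 1.198 for Itgb2, 0.91 for Itgb7, 0.66 for Itgam, 0.26 for Itgav, 0.12 for Itga5, −0.13 for Itgb1 and −0.23 for Itga4. The calls of Itgb2, Itgb7, Itgam and Itga4 held in all 17 alternative fits.

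Because a receptor needs both chains, the ratio of alpha to beta mRNA was taken within each library for the pairs with both chains at 1 FPKM or more on average in either group. That left out Itgax and Itgal with Itgb2 and Itgav with Itgb3. The ratio of Itgam to Itgb2 was 0.222, 0.233 and 0.216 in the BMH-21 libraries and 0.308, 0.344 and 0.310 in the DMSO libraries, a log2 difference of −0.52. The ratio of Itga4 to Itgb7 was 3.76, 3.37 and 3.40 in the BMH-21 libraries and 7.50, 8.33 and 9.49 in the DMSO libraries, a log2 difference of −1.26. In both pairs the groups did not overlap, and the alpha chain was lower relative to the beta chain with BMH-21.

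The ratio of Itga4 to Itgb1 was 3.11, 3.02 and 2.94 in the BMH-21 libraries and 3.40, 3.53 and 2.76 in the DMSO libraries. These overlapped (log2 difference −0.09, exact two-sided permutation p = 0.50). The difference was −0.20 without DMSO replicate 3, −0.0186 without DMSO replicate 2 and −0.0445 without DMSO replicate 1. The ratio of Itga5 to Itgb1 overlapped as well, at a log2 difference of 0.25 (exact two-sided permutation p = 0.20), and of 0.07 without DMSO replicate 3. The ratio of Itgav to Itgb1 was 0.117, 0.09999 and 0.128 in the BMH-21 libraries and 0.0933, 0.0881 and 0.0742 in the DMSO libraries, a log2 difference of 0.43 without overlap, or 0.34 without DMSO replicate 3. For each of these 3 ratios without overlap the exact two-sided permutation p was 0.10, the smallest possible, and 0.167 after Benjamini-Hochberg adjustment over the 5 planned ratios.

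**Figure D3:**
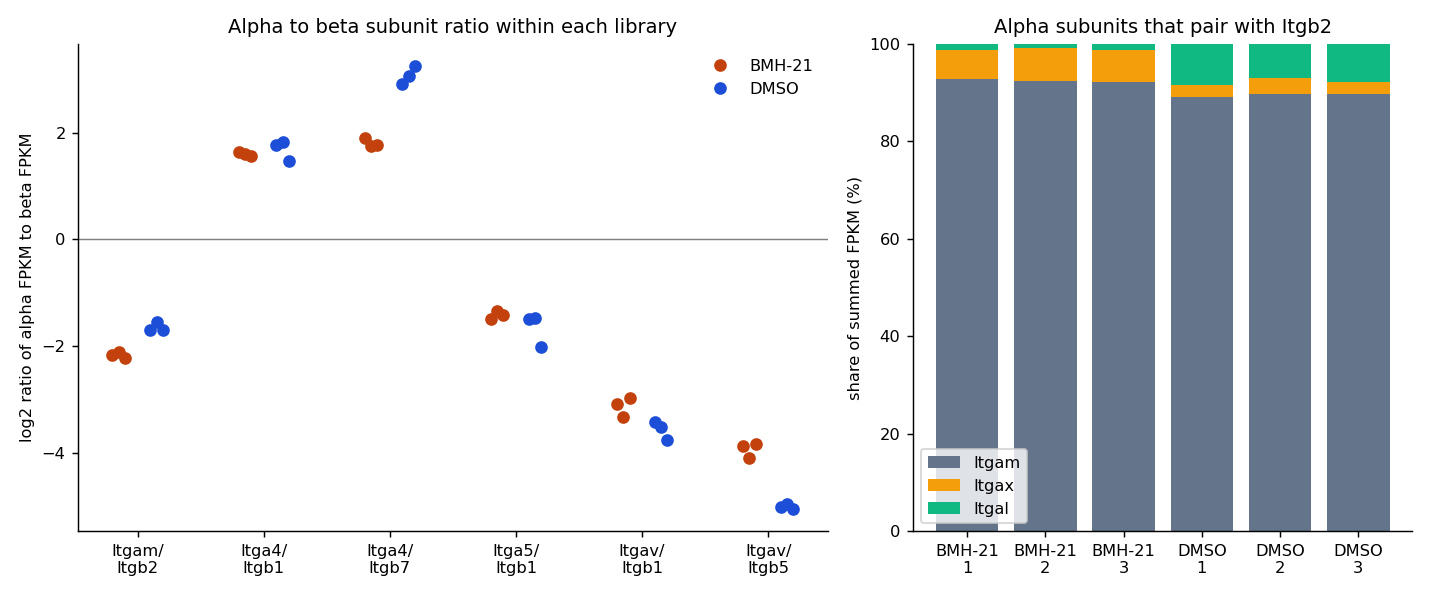
Left, log2 ratio of alpha to beta FPKM within each library for 6 subunit pairs; right, share of Itgam, Itgax and Itgal in the summed FPKM of the alpha chains that join Itgb2, in percent, for each library. The Itga4 to Itgb7 ratio is 3.37 to 3.76 in BMH-21 libraries and 7.50 to 9.49 in DMSO libraries, and the Itgal share is about 1% in BMH-21 libraries and 7% to 8% in DMSO libraries.

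Of 17 other integrin genes looked up, 13 were in the table and 1 passed the filter. Itgb5, another partner of alphaV, was at 16.8, 16.5 and 17.1 FPKM in the BMH-21 libraries and at 34.9, 33.0 and 35.6 FPKM in the DMSO libraries. The groups did not overlap, and the log2 change was −0.99 ± 0.04 (SE, limma adjusted p = 2.13e-08), close in size to the rise of Itgb2. The ratio of Itgav to Itgb5, added after this was seen, was 0.0686, 0.0588 and 0.0699 in the BMH-21 libraries and 0.0309, 0.0323 and 0.0301 in the DMSO libraries, without overlap.

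Among the rare genes, Itga3 and Itgb4, chains of laminin receptors best known from epithelia, followed the epithelial RNAs. Itga3 was at 0.905, 0.737 and 1.56 FPKM in the BMH-21 libraries, and was listed at 0 in DMSO replicates 1 and 2 and at 0.588 FPKM in replicate 3. Itgb4 was at 0.251, 0.234 and 0.308 FPKM in the BMH-21 libraries and at 0.0296, 0.0198 and 0.151 FPKM in the DMSO libraries. Both were higher in the 4 libraries with Krt8 and Krt18 RNA, and the part of such RNA in other values was not tested. Itga7, a laminin receptor chain of muscle, was at 0.823, 0.761 and 0.837 FPKM with BMH-21 and at 0.888, 1.04 and 1.07 FPKM with DMSO. Itga6 lay between 0.0533 and 0.226 FPKM with BMH-21 and between 0.0545 and 0.145 FPKM with DMSO, and the remaining 8 genes were under 0.1 FPKM in every library.

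The genes that work with integrins were examined in 6 lists, with 107 tested genes in all. Of these, 24 were called higher and 63 lower, or 22.4% and 58.9%, near the shares of 19.9% and 58.4% among all genes. Under median-ratio scaling the counts were 43 and 41. The separate lists varied around these shares, as given below, and none was tested as a list.

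**Figure D4:**
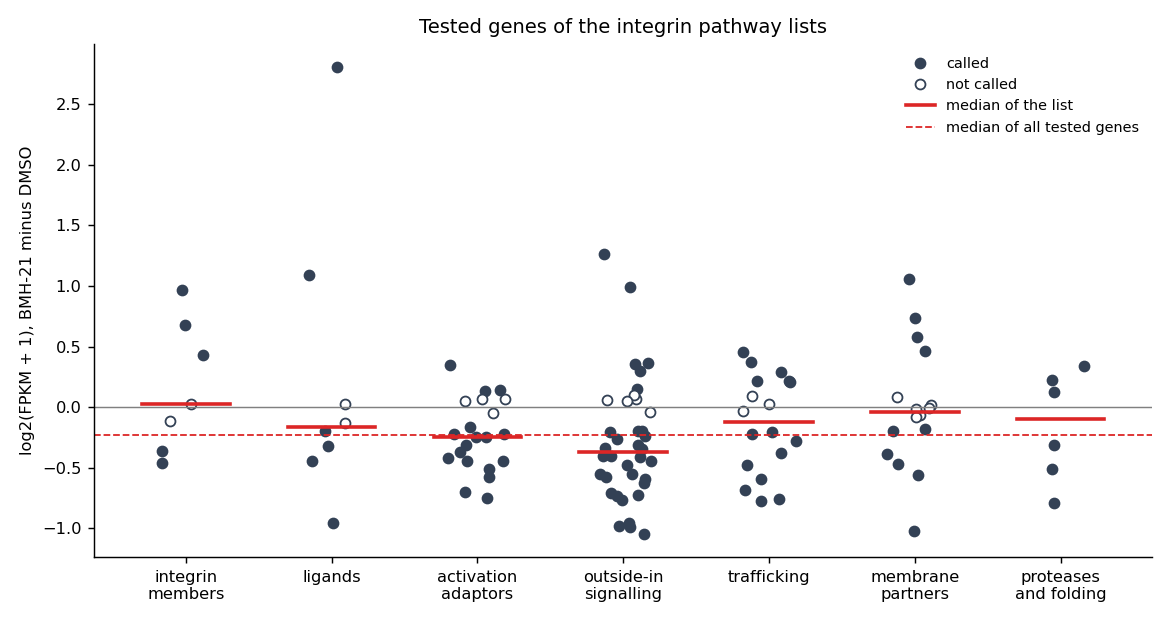
Change of each tested gene as log2(FPKM + 1), BMH-21 minus DMSO (vertical axis), for the integrin members and 6 lists of integrin-related genes (horizontal axis); filled points were called by limma, open points were not, solid red lines are list medians and the dashed line is the median of all tested genes, −0.23. List medians lie between −0.37 for outside-in signalling and 0.02 for the integrin members.

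Of the 23 ligand genes present, 8 were tested, 2 being called higher and 4 lower (median −0.17). Spp1, which encodes osteopontin, a ligand of alphaV and alpha4 integrins, was at 4244, 4039 and 4013 FPKM with BMH-21 and at 555, 601 and 600 FPKM with DMSO. Its log2 fold change was 2.81 (limma adjusted p = 2.26e-10). Icam2, a ligand of the alphaL beta2 receptor, was at 0.360 ± 0.069 FPKM with BMH-21 and 1.64 ± 0.20 FPKM with DMSO (SD, n = 3 each). It passed the filter through the DMSO libraries alone, so its call is among those the filter favours. Adam15, a disintegrin metalloproteinase, and Mfge8, the bridge from apoptotic cells to alphaV integrins, fell by 0.45 and 0.32 on the log2 scale.

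Of 21 tested genes of inside-out activation, by which talin, kindlin and RAP1 switch integrins to high affinity, 3 were called higher and 14 lower (median −0.25). Fermt3, the kindlin of blood cells, was at 6.95 ± 0.32 FPKM with BMH-21 and 10.8 ± 0.37 FPKM with DMSO, a log2 fold change of −0.57. Rap1a, a small GTPase, was at 115 FPKM with BMH-21 and 157 FPKM with DMSO, a log2 fold change of −0.45. Sipa1, which switches RAP1 off, fell by 0.75 on the log2 scale, and Cyth1, an exchange factor that binds beta2 tails, by 0.70.

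Of 38 tested genes of outside-in signalling, 6 were called higher and 27 lower (median −0.37). Src, a kinase activated by ligand-bound integrins, was at 12.2, 11.9 and 12.5 FPKM with BMH-21 and at 4.34, 4.28 and 4.88 FPKM with DMSO, with a log2 change of 1.26 ± 0.05 (SE, limma adjusted p = 2e-08). Parvg, the parvin of blood cells, fell by 0.99 and Vav1, a RAC exchange factor of blood cells, by 0.96 on the log2 scale.

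Of 18 tested trafficking genes, 6 were called higher and 9 lower (median −0.12). The endocytic adaptors Dab2 and Eps15l1 fell by 0.78 and 0.69 on the log2 scale, and Vps35 of the retromer and Washc5 of the WASH complex by 0.76 and 0.60. Of 16 tested membrane partners, 4 were called higher and 6 lower (median −0.04). The tetraspanins divided, Cd63 being at 822 FPKM with BMH-21 and 494 FPKM with DMSO, and Cd82 at 17.6 FPKM with BMH-21 and 36.8 FPKM with DMSO. Cd47, the ligand of SIRPA that also binds integrins, fell by 0.56, whereas Sdc1, a heparan sulfate proteoglycan, rose by 1.06 on the log2 scale. Of 6 tested proteases and folding factors, 3 were called higher and 3 lower. The sheddase gene Adam10 fell by 0.79, the convertase gene Furin by 0.51 and the chaperone gene Canx by 0.31 on the log2 scale, and the chaperone gene Calr rose by 0.34.

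The tested genes closest to the extreme members were found by the distance between log2(FPKM + 1) profiles, each centred on its mean, over the 6 samples. Nearest to Itgb2 were Hmga1 (distance 0.08), Gpr137b (0.08) and Aen (0.09), and nearest to Itga4 were Qars (0.04), Trim37 (0.05) and Ywhab (0.05). Hmga1 was at 438 FPKM with BMH-21 and 220 FPKM with DMSO, and Qars at 11.9 FPKM with BMH-21 and 16.6 FPKM with DMSO. With 2 groups of 3 samples such likeness reflects mainly a similar difference between the groups.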

How the data were processed

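The members and gene lists were chosen with earlier results of these data known. The deposited table holds 19233 genes in 6 library columns, whose unit was read as FPKM from the values, since the authors' file header names none. The submitters' processing notes list mm10 and the tools SAMtools, HISAT2 and Trimmomatic 0.38. The sources used here do not give the counting tool or the annotation. FPKM are shares of a library, so abundant genes that rise lower the others. Low values matched whole reads (within 0.01) for 75.5% to 77.6% of low single-transcript genes, too few to recover counts, so no count model was run.

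Genes that reached 1 FPKM in 3 or more samples (9748, or 50.7%) were fitted as log2(FPKM + 1) in limma 3.58.1 (R 4.3.3) with an intensity trend, BMH-21 minus DMSO, with Benjamini-Hochberg adjustment at 0.05 over all tested genes. This scale understates changes of low genes. Ratios and shares were compared by exact two-sided permutation tests. Alternatives covered pseudocount, filter, scaling, trend, a replicate block and leaving out libraries. Named genes were all integrin genes in the table and, from each pathway list, up to 4 called genes without overlap in ascending order of p. A gene that this rule names is not reported here. Coordinates are from GENCODE M21 (GRCm38, the assembly of mm10) and promoters from RefSeq (GRCm38.p6), which matched 7 of the 10 members. Values cover a gene's exons as a whole. As molecule, polyA RNA is given for DMSO replicate 2 and total RNA for the other 5 libraries, although a common oligo-dT protocol is described. Other marker lists, in summed FPKM, were 0.319 to 0.492 with BMH-21 and 0.12 to 0.314 with DMSO for neutrophils, 13.5 to 15.0 and 17.4 to 19.8 for megakaryocytes, and 0.056 to 0.1 and 0.131 to 0.162 for fibroblasts. The megakaryocyte sum was nearly all Pf4, while Ppbp, Gp1bb, Gp9 and Itga2b stayed under 0.1 FPKM in every library.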

Additional observations from a re-analysis of the deposited data

How the results depend on the processing

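Scaling between libraries moved the counts most. Genes called higher and lower were 3643 and 3546 with median-ratio scaling and 3517 and 3498 with quantile normalization, and 3349 were higher with upper-quartile scaling. Equal column totals went the other way, with 1389 higher and 6623 lower, and 16 and 68 in the pathway lists. Of the integrin members, 1 was called lower under each of median-ratio and upper-quartile scaling and quantile normalization, and 5 were called higher with quantile normalization. In the 6 pathway lists together, 43 genes were higher and 41 lower under median-ratio scaling, and upper-quartile scaling gave 41 higher. Itga5 turned to 0.11 (median-ratio), 0.0734 (upper-quartile) and 0.20 (quantile) and to 0.0176 without DMSO replicates 1 and 2. Itgav turned to −0.0401 with equal column totals, and ranged from −0.0065 without BMH-21 replicate 3 to 0.0704 without BMH-21 replicate 2. With quantile normalization the log2 ratio differences were −0.38 for Itgam to Itgb2, −1.47 for Itga4 to Itgb7, 0.71 for Itgav to Itgb1 and 1.43 for Itgav to Itgb5. With 1 FPKM added to each gene, the shares of beta2 alpha chains differed by 6.001 points for Itgam, −6.03 for Itgal and 1.49 for Itgax. Shares could not be given under quantile normalization, which covered tested genes alone. These shifts came with changes in the scaling, in the added constant or in the libraries used, and no cause was tested. With the replicate block, Itgb1 had −0.36 (limma adjusted p = 0.00156), and no member changed its call. Same-numbered libraries did not deviate together (correlations −0.11, −0.09 and −0.06), so the numbers were not taken as pairs. Depth limits Itgax, Itgal and Itgb3, which rest on under 100 reads a library.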
